A study of Mus musculus with 2 samples.

Results

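Integrins, laminins and the proteins that link them into the basement membrane were examined in mammary glands of mice with an inducible deletion of Gata3, a transcription factor of the luminal epithelium. The member genes were taken by symbol from the platform's probe annotation: integrin alpha and beta subunits (Itga, Itgb), laminin chains (Lama, Lamb, Lamc), Nid1, Nid2, Hspg2, Agrn and Dag1, leaving out the integrin-binding proteins Itgb1bp1, Itgb1bp2 and Itgb3bp and the integrin-like Itgbl1. This gave 32 of the 15056 genes named on the array, measured by 46 features, with 21 members read by 1 feature and 11 by several. No feature used here carried the symbol of Itga1, Itga10, Itgad, Itgal, Itgb8, Lama2, Lama3, Lama5, Lamc1 or Hspg2, so these genes were not analysed here.

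Null glands (GATA-3flox/flox; WAP-rtTA-Cre) were set against het glands (GATA-3flox/+; WAP-rtTA-Cre) of adult mice. Both genotypes carried the inducible Cre and received doxycycline for 5 days. WAP-rtTA-Cre makes Cre recombinase in mammary epithelial cells under the promoter of a milk protein gene, so the other cells of the gland are not its target. RNA of the whole gland was labelled with Cy3 (null) and Cy5 (het) and hybridised together on each of 2 spotted oligonucleotide arrays, and 0 arrays had the dyes exchanged.

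Each deposited value is a log ratio of the channels of an array, read here as log2, with 1 unit being 2-fold. Which channel was the numerator is stated in none of the sources used here. A positive ratio means more RNA in null glands if Cy3 was divided by Cy5, and more in het glands if Cy5 was divided by Cy3. Signs below are those of the deposited file, and they all turn if the other reading is right. Genotype and dye were tied together on every array, so a probe's preference for one dye and a difference between genotypes cannot be told apart. The labels do not tie the arrays to separate animals, so SDs and p-values reflect array-to-array spread that may be technical. In RNA of whole glands, fewer cells of a type and less RNA per cell cannot be told apart. The files hold ratios and no signal levels, so the labelled tissue could not be checked against the level of its markers. Gata3 itself had 1 feature, at 1.60 on array 1 and 0.21 on array 2 (limma adjusted p = 0.156), and the position of that probe relative to the deleted part is not stated in the labels.

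Integrins are heterodimers of an alpha and a beta subunit that hold cells to the extracellular matrix or to other cells, the alpha subunit largely setting the ligand. Laminins are trimers of an alpha, a beta and a gamma chain that polymerise into the sheet on which epithelial cells rest. Nidogens and the heparan sulfate proteoglycans perlecan (Hspg2) and agrin tie that sheet together, and dystroglycan is a second, non-integrin receptor for laminin. In the mammary gland, integrins containing the beta-1 subunit are known for anchoring myoepithelial and luminal cells to laminin and for supporting milk production.

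The members went both ways. On both arrays 11 members were positive and 11 negative, and 10 did not keep one sign, where 33.7% of all genes were positive and 34.1% negative on both. The median member ratio was 0.03 on array 1 and -0.01 on array 2, against 0.01 and -0.01 for all genes. Means of single members ran from -0.90 for Itgb7 to 0.63 for Itgav. The SD across members was 0.41 on array 1, where that across all genes was 0.61, and 0.42 on array 2, where that across all genes was 0.41. Between the arrays the members' ratios had a Pearson r of 0.438 over 32 genes, and all genes 0.616 over 15056, as descriptions over genes of the same hybridisations.

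**Figure D1:**
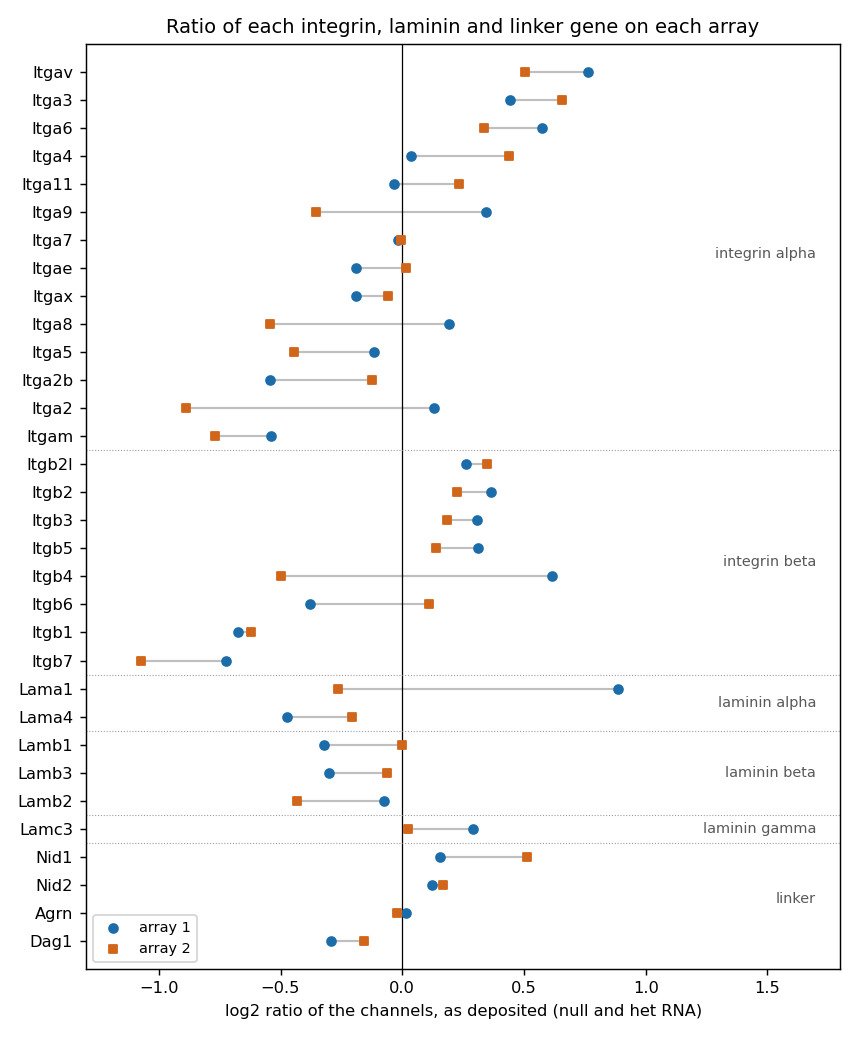
Log2 ratio of null and het RNA, as deposited, for each of the 32 members on array 1 (circles) and array 2 (squares), grouped by role and ordered by mean. Itgb7, Itgb1 and Itgam lie left of 0 on both arrays and Itgav, Itga3 and Itga6 right of 0, while Lama1 and Itgb4 lie on opposite sides.

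By limma's moderated test of gene-level ratios against 0, 1 of 32 members, Itgb7, passed an adjusted p of 0.05. In the same fit 8.26% of all genes passed, so the count is no result about the members as a set. The single call was negative. Of all genes tested, 0.983% passed with a negative ratio and 7.28% with a positive one. At an unadjusted p under 0.05 there were 6 members, namely Itgav, Itga3 and Itga6 with positive and Itgb7, Itgam and Itgb1 with negative ratios, beside 23.8% of all genes (17.1% positive and 6.67% negative). No member was 2-fold from 0 on both arrays, as 2.15% of all genes were. Itgb7 on array 2 was the 1 case of a member at least 2-fold from 0 on either array, which 11.5% of all genes reached.

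**Figure D2:**
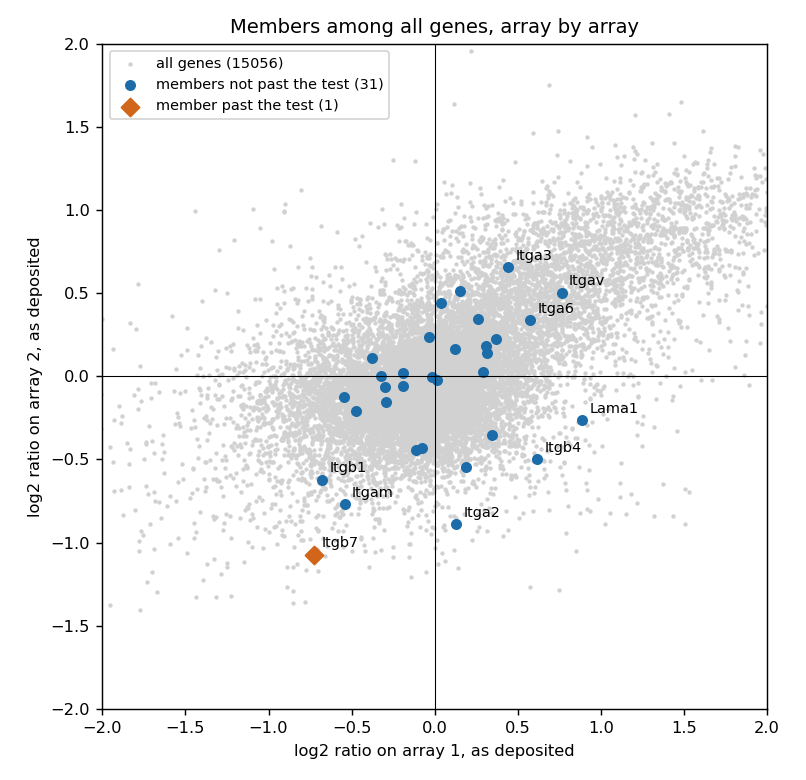
Log2 ratio on array 1 (horizontal) against array 2 (vertical), as deposited, for all genes (grey) and the members (blue circles, with the 1 member past the test as an orange diamond). Named points are members with an unadjusted p under 0.05 or arrays more than 1 unit apart, the axes stop at 2 on either side and leave out 112 genes, and Itgb7 lies at -0.72 and -1.07.

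Itgb7 encodes the beta-7 subunit, which pairs with alpha-4 to carry lymphocytes to mucosal vessels and with alpha-E to hold them to E-cadherin on epithelium. Array 1 gave a ratio of -0.72 and array 2 one of -1.07, that is 1.65-fold and 2.10-fold from 0. The mean was -0.90 ± 0.25 (SD, n = 2; limma adjusted p = 0.0399), with a 95% interval of -1.35 to -0.45 that borrows from the spread of other genes. This put it at percentile 6.51 of all genes on the first array and 0.242 on the second. Itgb7 was read by 1 feature, and when features were tested in place of genes its adjusted p was 0.0608 (0.00865 to 0.538 over all alternatives tried), which ends the call. In that test 0 of 38976 features passed (22.0% had an unadjusted p under 0.05), so it ends every other gene-level call given below as well. As gene means, its alpha partners were not negative on both arrays. Itga4, the alpha-4 subunit, gave 0.04 and 0.44, and Itgae, the alpha-E subunit, gave -0.19 and 0.02, as means of 2 and 5 features (limma adjusted p = 0.523 and 0.830). These means join features that differ in sign, and 1 Itga4 feature (-0.35 and -0.17) and 2 Itgae features (-0.68 and -0.13, -1.02 and -0.29) were negative on both arrays.

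The 10 measured of 13 leukocyte markers went both ways on these arrays, with 4 positive and 4 negative on both and a median mean ratio of 0.12. Of these, Ctss, the lysosomal protease cathepsin S, passed at 1.45 and Cd3g, a chain of the T cell receptor complex, at 0.89, both with the sign opposite to Itgb7 (limma adjusted p = 0.0336 and 0.0428). With feature medians Cd3g did not pass (0.0534, with 0.00693 to 0.573 over all alternatives). Others shared the sign of Itgb7 on both arrays without passing: Cd3e, a further chain of that complex, at -0.53 and -0.17, the B cell receptor gene Cd79b at -0.48 and -0.26, Laptm5 at -0.80 and -0.62 and Coro1a at -0.32 and -0.38. On the positive side, Adgre1 gave 1.18 and 0.61 and did not pass (limma adjusted p = 0.0512). The ratio of Ptprc, the pan-leukocyte CD45 gene, was 0.11 and 0.18. The part of leukocyte content in the Itgb7 ratio was not tested. Madcam1, the vessel ligand of alpha-4 beta-7, stood at -0.21 and -0.30, and Vcam1, a ligand of alpha-4 beta-1, at 0.50 and 0.11.

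Promoter sequences were available for 22 of the 32 members, 27 windows in all, from RefSeq on GRCm38.p6, each running from 250 bases before the gene start to 50 after it. Since the deleted gene encodes a GATA factor, the windows were searched on both strands for a hexamer made of A or T, then GATA, then A or G, the 1 motif searched. Such a word was present in 2 member windows, those of Itgb7 and Itgax, and in 29.8% of all 32851 promoter windows. Both are printed below, Itgb7 because it was the member past the test and Itgax because its window was the other one with a match. Capitals mark the hexamer, and in Itgb7 it is read on the opposite strand. The matches are descriptions of these letters and not binding sites.
Itgb7 promoter, GRCm38.p6 chr15:102231886-102232185, minus strand: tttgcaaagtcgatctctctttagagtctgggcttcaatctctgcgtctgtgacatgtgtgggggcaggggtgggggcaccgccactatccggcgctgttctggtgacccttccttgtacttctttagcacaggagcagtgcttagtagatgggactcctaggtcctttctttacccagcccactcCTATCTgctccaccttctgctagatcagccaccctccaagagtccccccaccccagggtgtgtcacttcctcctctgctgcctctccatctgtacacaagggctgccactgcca
Itgax promoter, GRCm38.p6 chr7:128129300-128129599, plus strand: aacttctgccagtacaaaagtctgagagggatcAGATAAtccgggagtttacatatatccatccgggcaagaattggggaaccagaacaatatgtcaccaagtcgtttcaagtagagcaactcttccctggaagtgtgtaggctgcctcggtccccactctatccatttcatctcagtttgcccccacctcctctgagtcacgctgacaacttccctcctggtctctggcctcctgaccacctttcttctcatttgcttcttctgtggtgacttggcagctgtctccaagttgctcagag

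Itgb1, the beta-1 subunit shared by most matrix-binding integrins, gave -0.68 on array 1 and -0.62 on array 2. The mean was -0.65 ± 0.04 (SD, n = 2) and did not pass (limma adjusted p = 0.0746). Its features gave nearly the same mean, -0.64 and -0.65, and each was negative on both arrays. They gave -0.795 and -0.491, and -0.557 and -0.752, on arrays 1 and 2. These array differences ran in opposite directions, so the SD of 0.04 was smaller than that of either feature (0.215 and 0.138). The percentiles of Itgb1 among all genes were 7.57 and 2.95. With the arrays scaled to equal median absolute deviation it passed (limma adjusted p = 0.0450, with 0.0266 to 1.0 over all alternatives), as did Itgav, which made 3 members called, 1 positive and 2 negative. After quantile normalization 4 members were called, 1 positive and 3 negative, with Itgam as the further one. In these fits 13.6% and 15.9% of all genes passed, more than the 9.38% and 12.5% of members.

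Among the other beta subunits, Itgb2, the chain of the leukocyte integrins, had ratios of 0.37 and 0.22, and Itgb2l, a related gene of mouse neutrophils, 0.26 and 0.35. Itgb3, which pairs with alpha-v and with the platelet alpha-IIb, had 0.31 and 0.18, and Itgb5, a partner of alpha-v, 0.31 and 0.14. These 4 genes were positive on both arrays, with means of 0.23 to 0.30, and did not pass (limma adjusted p from 0.361 to 0.512). Itgb4, the long-tailed subunit that anchors hemidesmosomes of basal cells, stood at 0.62 on array 1 and -0.50 on array 2, and Itgb6, an epithelial partner of alpha-v, at -0.38 and 0.11. These last had no sign in common between the arrays.

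The alpha subunits that bind laminin were positive for 2 of 3 genes. Itga3 had ratios of 0.44 and 0.66 (mean 0.55 ± 0.15, SD, n = 2; limma adjusted p = 0.123). Itga6 had 0.57 and 0.34 (mean 0.45 ± 0.17, SD, n = 2; limma adjusted p = 0.191). These Itga6 values join a feature at 1.25 and 0.57 with another at -0.11 and 0.10, so they rest on the first. Itga7, the laminin receptor of muscle, lay at -0.02 and -0.01. Itga3 and Itga6 are partners of beta-1 on basal cells, and both had an unadjusted p under 0.05 without passing limma's adjusted threshold. The 8 measured of 10 basal myoepithelial markers had a median mean ratio of 0.08, with 3 positive and 3 negative on both arrays. Of them Krt5, a basal keratin, passed at -0.97 (limma adjusted p = 0.0494), and its ratios were -1.31 and -0.62. Neither with a robust prior (0.0536) nor with feature medians (0.0624) did Krt5 pass, where its limma adjusted p ran from 0.00538 to 0.547 over all alternatives. Its keratin partner Krt14 went the other way, at 1.10 and 0.51, and did not pass (limma adjusted p = 0.0690). The part of basal cell content in these ratios was not tested.

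Alpha subunits that recognise the arginine-glycine-aspartate sequence of matrix proteins differed in sign. Itgav, the alpha-v subunit, had ratios of 0.77 and 0.50 (mean 0.63 ± 0.18, SD, n = 2; limma adjusted p = 0.0882), at percentiles 88.0 and 85.5. Itga5, the fibronectin receptor, had -0.12 and -0.45 and Itga2b, the platelet alpha-IIb, -0.54 and -0.13, while Itga8 changed sign at 0.19 and -0.55. The platelet and megakaryocyte markers measured beside Itga2b, 5 of 8, had means of -0.20 to -0.05, with Gp9 at -0.30 and -0.10, and the part of platelet content was not tested. The collagen receptors Itga2 (0.13 and -0.89) and Itga11 (-0.04 and 0.23) and the tenascin receptor Itga9 (0.34 and -0.36) also differed in sign between the arrays.

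Leukocyte alpha subunits were led by Itgam, the alpha-M chain of macrophages and neutrophils, at -0.54 and -0.77. The mean was -0.65 ± 0.16 (SD, n = 2; limma adjusted p = 0.0797). Itgax, the alpha-X chain of dendritic cells and macrophages, stood at -0.19 and -0.06 (limma adjusted p = 0.736). Their common partner Itgb2 was positive on both arrays, as given above. Of the 10 measured leukocyte markers 4 were negative and 4 positive on both arrays. Adgre1, at 1.18 and 0.61, had the sign opposite to Itgam. The part of leukocyte content in the Itgam and Itgax ratios was not tested.

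Of the 6 measured laminin chains 0 passed by limma, beside 8.26% of all genes, and 0 had an unadjusted p under 0.05, beside 23.8%. Numbers this small say little about the chains as a set. Lama4, a chain of blood vessel and adipocyte basement membranes, had ratios of -0.47 and -0.21 (mean -0.34 ± 0.19, SD, n = 2; limma adjusted p = 0.325). Lama1, a chain of embryonic basement membranes, gave 0.89 on array 1 and -0.26 on array 2, and with an SD of 0.81 it had the widest spread between the arrays of any member. The beta chains were Lamb1, at -0.32 and 0.00, Lamb2, at -0.07 and -0.43, and Lamb3, a chain of the hemidesmosomal laminin, at -0.30 and -0.06. Means of the beta chains ran from -0.25 to -0.16 (limma adjusted p from 0.486 to 0.673). Lamc3, a gamma chain, had 0.29 and 0.02. Of the laminins 3 were negative and 1 positive on both arrays.

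Among the linkers, both nidogens, which bridge laminin and collagen IV, were positive on both arrays. Nid1 had 0.15 and 0.51, a mean of 0.33 ± 0.25, and Nid2 had 0.12 and 0.17, a mean of 0.14 ± 0.03 (SD, n = 2 each; limma adjusted p = 0.351 and 0.689). Agrn, agrin, lay at 0.02 and -0.02. Dag1, which encodes both dystroglycan subunits, had -0.29 and -0.16 (mean -0.23 ± 0.10, SD, n = 2; limma adjusted p = 0.512). Of the 4 measured linkers 0 passed by limma, beside 8.26% of all genes. An unadjusted p under 0.05 was reached by 0 of them, beside 23.8% of all genes, and 4 genes say little as a set.

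Features of one member often differed more than its gene mean did between the arrays. All features of a member were assigned to the same transcript by the platform annotation, and the stretch that each probe matches is not stated there. In 8 of the 11 members with several features, the range of the feature means exceeded the difference between the arrays. That difference was taken after features were averaged, and the same count was not made for all genes. For members with 2 features the median range was 0.40, beside 0.37 for all genes with 2 features. For Itgb5 one feature gave 1.10 and 0.56 and the other -0.48 and -0.28, so its gene mean of 0.23 stands for neither. Itga6 had a feature at 1.25 and 0.57 and another at -0.11 and 0.10, and Itga4 one at 0.43 and 1.05 and another at -0.35 and -0.17.

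The 5 Itgae features had means from -0.66 to 0.31, with single values down to -1.02 on array 1. Dag1 had feature means of 0.01 and -0.46, Itga11 of 0.29 and -0.09, and Agrn of 0.09 and -0.10. Feature means differed in sign in 7 of the 11 members, and in 6 of the 10 with exactly 2 features, a share of 60.0% beside 47.9% of the 3598 genes of the array with 2 features. Itgb1, Itgb2l, Itgb6 and Lamc3 were the members whose feature means kept one sign.

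**Figure D3:**
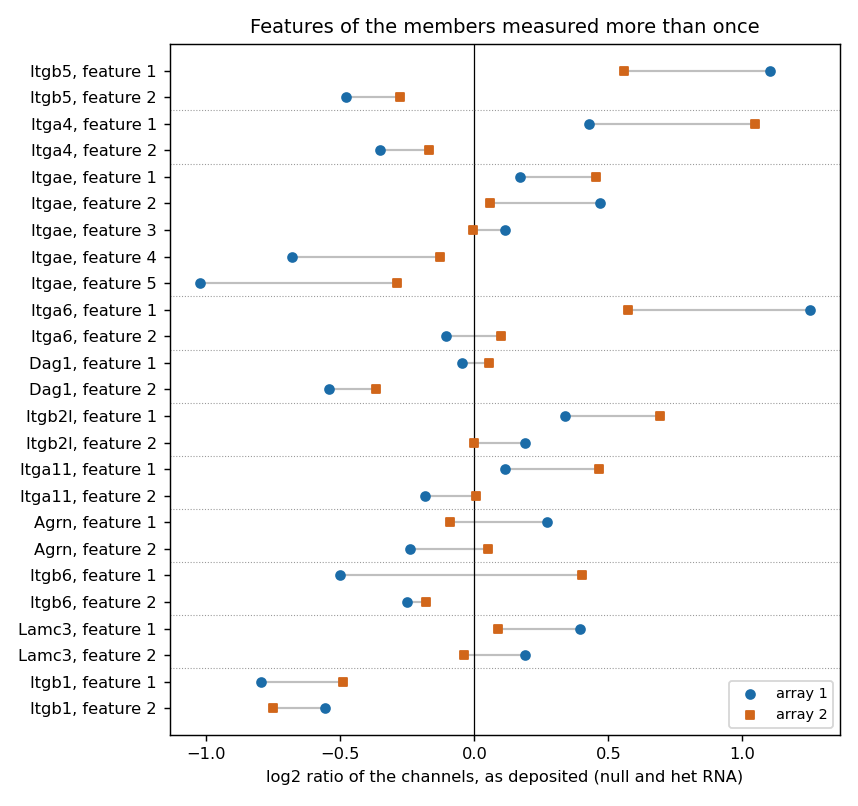
Log2 ratio, as deposited, of each feature of the 11 members with several features, on array 1 (circles) and array 2 (squares), with the members ordered by the range of their feature means. The Itgb5 features lie on opposite sides of 0. Both Itgb1 features lie left of 0, at -0.795 and -0.491 and at -0.557 and -0.752 on arrays 1 and 2.

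Known alpha-beta pairs were compared subunit by subunit, since a receptor needs both chains. Of 24 pairs, 19 had both genes measured. In 4 pairs the subunits shared one sign on both arrays: Itgav with Itgb3 and Itgav with Itgb5 were positive, and Itga5 and Itga7 with Itgb1 were negative. In 8 pairs the subunits had opposite signs on both arrays, and in 7 a subunit did not keep one sign. Itgb1 was opposite in sign to 4 of its 10 measured partners, Itga3, Itga4, Itga6 and Itgav, and Itgb2 to both of its measured partners. The other opposite pairs were Itga2b with Itgb3 and Itga4 with Itgb7. The gene means of Itgb5, Itga4 and Itga6 join features that differ in sign, so the counts of shared and opposite pairs depend on that averaging. They also depend on values near 0, such as Itga7 at -0.016 and -0.005 and Itga4 at 0.04 on array 1. The sign of Itga7 turned with each array's median subtracted. Pairs share subunits and are not independent, and no test was made of their counts.

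**Figure D4:**
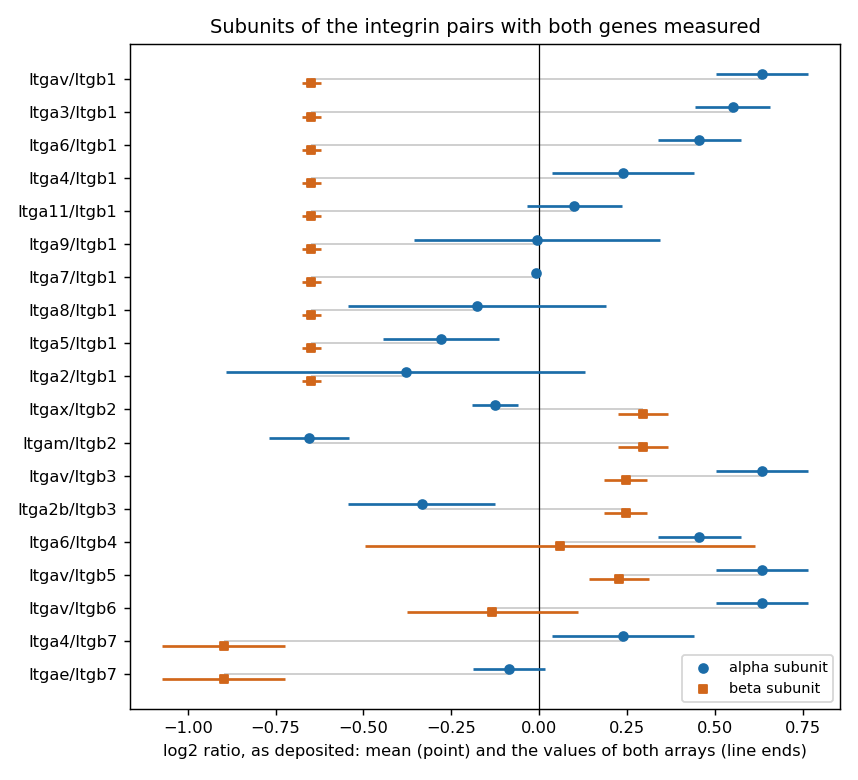
Log2 ratio, as deposited, of the alpha (circles) and beta (squares) subunit of the 19 integrin pairs with both genes measured; points are means and the coloured line ends are the values of the arrays. Itgav stands at 0.63 and Itgb1 at -0.65, on opposite sides of 0.

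Genes that work with these receptors were read from 5 further lists of 92 genes, of which 74 were measured. Of these 4 passed, 3 positive and 1 negative, beside 8.26% of all genes, and their median mean ratio was -0.05. Rap1a, a small GTPase that activates integrins, passed with ratios of 1.08 and 1.04 (mean 1.06 ± 0.03, SD, n = 2; limma adjusted p = 0.0336). It was 1 of 21 cytoplasmic adhesion genes. Dmd, dystrophin, which ties dystroglycan to actin, passed at 1.09 and 0.68 (limma adjusted p = 0.0433), as 1 of 13 genes of the dystrophin complex and dystroglycan glycosylation. Dag1, its partner at the membrane, is given above and did not pass.

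Cd81, a tetraspanin that associates with integrins, passed at 0.88 and 0.68 (limma adjusted p = 0.0492) among 7 hemidesmosome and tetraspanin genes. With a robust prior its limma adjusted p was 0.0502, and with the median of the features of each gene 0.0582 (0.0119 to 0.868 over all alternatives). Vtn, the matrix ligand vitronectin of alpha-v integrins, passed with a negative ratio at -0.86 and -0.70 (limma adjusted p = 0.0480) among 10 ligands outside the basement membrane. With the median of features its limma adjusted p was 0.0568 (0.0109 to 0.849 over all alternatives), and 2 pathway genes then passed, both positive. Of 23 measured basement membrane collagens and other proteins of that sheet 0 passed by limma, beside 8.26% of all genes. An unadjusted p under 0.05 was reached by 1, beside 23.8% of all genes, and 0 passed when features were tested. In that list Fras1, a basement membrane protein of embryonic epithelia, had 0.40 and 0.65, and Col7a1, the anchoring fibril collagen, -0.65 and -0.18.

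**Figure D5:**
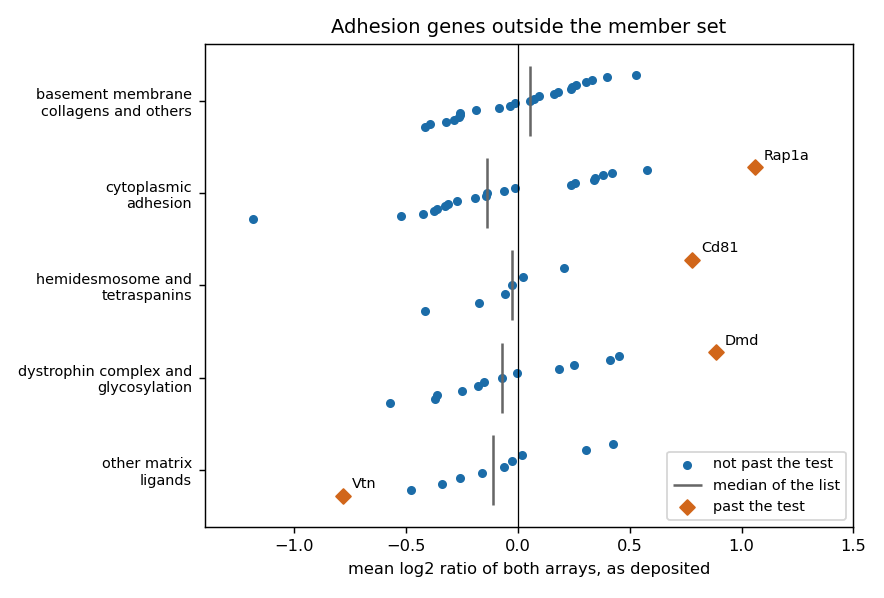
Mean log2 ratio of both arrays, as deposited, of each measured gene in 5 lists of adhesion genes outside the member set, with genes past the test as orange diamonds and the median of each list as a grey bar. Rap1a, Cd81 and Dmd lie right of 0 and Vtn left of it, and the list medians lie between -0.14 and 0.06.

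Markers of fat and stroma had more negative medians on array 1 than on array 2, while the member medians differed by less. White adipocyte markers had a median of -0.90 on array 1 and -0.15 on array 2, with Adipoq, adiponectin, at -1.74 and -0.41 and Car3 at -1.77 and -0.15. In the same list Lep, leptin, was positive at 0.50 and 0.66, and Fabp4, a fatty acid carrier, differed in sign at -0.904 and 0.997. Fibroblast markers had medians of -0.66 and -0.11, with Col1a1 at -1.79 and -0.07 and Fn1, fibronectin, at -0.45 and -0.51. Negative on both arrays were 4 of 7 adipocyte and 5 of 7 fibroblast markers, beside 34.1% of all genes. Lama4 and Itga5 were among the 11 members negative on both arrays, while 11 others, with Nid1 and Nid2, were positive on both. The part of fat and stromal cells in these ratios was not tested.

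Luminal markers had medians of -0.07 and -0.02, with 1 of 9 positive and 5 negative on both arrays. In that list Krt8 and Krt18, the luminal keratins, had means of -0.62 each, and Esr1, the estrogen receptor gene, was positive at 0.73 and 0.48. Endothelial markers had medians of 0.14 and 0.28, with Kdr, a VEGF receptor, at 0.61 and Cldn5, a tight junction protein, at -0.56 as means. Skeletal muscle markers stood at -0.34 and -0.22, with 1 of 7 positive and 5 negative on both arrays. Among the negative ones were Tnnc2 at -0.74 and Casq1 at -0.71 as means. By limma at the gene level 0 of the measured adipocyte, fibroblast, luminal, endothelial, platelet and muscle markers passed, beside 8.26% of all genes. An unadjusted p under 0.05 was reached by 4 of 7, 2 of 7, 3 of 9, 3 of 6, 0 of 5 and 2 of 7 in that order. The share of all genes was 23.8%. Milk genes had medians of -0.38 and -0.10, with 2 of 6 positive and 3 negative on both arrays. Of these 6, 1 passed, Csn3, kappa-casein, at 0.93 (limma adjusted p = 0.0367), with the sign opposite to these medians.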

How the data were processed

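The deposited values are log ratios of 2 spotted two-colour arrays, read as log2. Per the series' design text, the authors normalized each print-tip group by lowess with the Acuity 4.0 software. The sources used here state neither the log base, the numerator and the centring nor the background correction and the spot filters, and another base would rescale every value. All 38976 features had values on both arrays, of which 22973 had 1 gene symbol, 0 several and 16003 none, and all 22973 matched RefSeq by Entrez ID. No spot intensities were used here, so the number of arrays limits the precision.

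Features were averaged per gene and array. Ratios were tested against 0 with limma 3.58.1 (R 4.3.3), two-sided, Benjamini-Hochberg adjusted over 15056 genes at 0.05. With 1 residual degree of freedom the test rests on variance shared across genes (prior degrees of freedom 5.41), and an exact sign-flip test could not go below p = 0.5. The fit was tested on simulated data.

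Members and lists (5 of adhesion genes, 9 of cell type markers) were chosen with earlier results of these data known. Every measured member is named. SD and adjusted p are given for members past the test and the 2 of each role with the largest mean of one sign, and for others where useful. From each list the genes past the test are named, or else up to 2 with the largest mean among those with one sign on both arrays. Krt14, Esr1, Cd3e, Cd79b, Laptm5, Coro1a, Adgre1, Lep, Fabp4, Ptprc, Madcam1, Vcam1, Rac1, Parva and Ilk were named after their values were seen. Alternatives were other scalings, feature medians, tests of features, a robust prior, limma's treat against 0.5, an adjusted p of 0.1 and leaving out each array. Figures were drawn with matplotlib 3.10.9.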

Additional observations from a re-analysis of the deposited data

How the results depend on the processing

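The count of members past the test, 1 as reported, was 1 with each array's median subtracted, with feature medians and with a robust prior. It was 3 with equal median absolute deviation, 4 after quantile normalization, 4 at an adjusted p of 0.1, 0 with features tested in place of genes and 0 with limma's treat against 0.5. For all genes, where 1244 passed, the same 5 settings gave 2052, 2391, 2113, 0 and 0. Among adhesion pathway genes, where 4 passed (3 positive, 1 negative), there were 7 (4 and 3) after quantile normalization, 2 (2 and 0) with feature medians, and 0 with features tested or with treat. With each array's median subtracted or equal median absolute deviation 5 passed (3 and 2). The member median of -0.0082 was -0.0535 after quantile normalization, and -0.0128 to 0.0262 leaving out one array, where no residual degree of freedom is left for a test. Itgb7 kept its sign under every alternative, with an adjusted p of 0.00865 to 0.538. Under the scaling and feature alternatives signs turned for Agrn (0.0148 with medians subtracted, 0.0144 with equal median absolute deviation, 0.00 after quantile normalization), Itga7 (0.0070 and 0.0105 in the first pair of settings), Itga9 (0.0115 with medians subtracted), Itgb4 (-0.0147 with equal median absolute deviation, -0.0451 after quantile normalization) and Itgae (0.0545 with feature medians), all with means within 0.1 of 0. Leaving out an array gives the ratio of the other one, so members without one sign take either sign there, such as Itga2 (0.13 or -0.89), Lama1 (0.89 or -0.26), Itga8 (0.19 or -0.55) and Itgb6 (-0.38 or 0.11). The cause of these changes was not tested. The ratios already pair null with het RNA within each array. No paired analysis was possible because the labels give no replicate numbers that could serve as a further block. Having 2 arrays in one dye orientation and the absence of signal levels limit all values.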

Other observations

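Some cytoplasmic partners of integrins had large ratios that differed between the arrays, and they were chosen after their values were seen. Of the 21 measured, 3 were at least 2-fold from 0 on either array, beside 11.5% of all genes. That count is no result about these partners as a set. Rac1, a small GTPase of cell spreading, gave -1.84 on array 1 and -0.53 on array 2. Its mean of -1.18 was farther from 0 than that of Rap1a and did not pass (limma adjusted p = 0.0714). Ilk, the integrin-linked kinase scaffold, gave -0.92 and -0.13, and Parva, parvin alpha of the same complex, -0.32 and 1.01, and neither passed (limma adjusted p = 0.241 and 0.583). Rac1 and Parva were read by 1 feature each.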
